A study of Mus musculus with 14 samples.

Results

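The WDR5 peaks described here were called in both solvent controls of the series and in neither treated list. They were chosen by position from the peak lists of chromatin immunoprecipitation followed by sequencing (ChIP-seq) for WDR5. A peak of the DMSO list was taken when it lay on an autosome, was at most 500 bp wide, shared at least 1 bp with a WDR5 peak of the EtOH list, and shared no base with any WDR5 peak under MM-401 or under 4OHT. These conditions left 1205 of the 14481 DMSO WDR5 peaks, called jointly absent sites below. Absent means that no peak was called there, because the lists give positions without any height or read count. The absence itself was the rule that chose the sites, so it is a description and not a result.

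All cells were mouse bone marrow cells transduced with the MLL-AF9 fusion and cultured in medium holding 15% serum and 10 ng per ml of interleukin-3. For 2 days MAF9 cells were exposed to 20 µM of MM-401 or to its solvent DMSO. MLL1 flox/flox, ER-cre+/- cells, transduced with the same fusion and carrying floxed Mll1 alleles and a Cre recombinase that 4-hydroxytamoxifen (4OHT) activates, received 4OHT at 400 nM for 2 days, or ethanol (EtOH). WDR5 and H3K4me2 were mapped in all 4 conditions and MLL1 in DMSO and MM-401 only, with 1 library for each, so no replicate error exists and no test between conditions was possible. MLL1 was not mapped in the floxed cells, and the lists therefore do not show whether Mll1 was deleted there. The antibodies against MLL1 and WDR5 were made by the study's laboratory, and the MLL1 antibody was described as reading the C-terminal fragment, which MLL-AF9 lacks. The 10 peak lists held from 8525 to 105136 peaks.

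MLL1 is a histone methyltransferase that works in a complex with WDR5, RBBP5, ASH2L and DPY30. WDR5 holds the complex together by binding a short motif near the catalytic domain of MLL1, the contact that MM-401 blocks. It is also present in complexes built on the relatives of MLL1. H3K4me2, dimethylated lysine 4 of histone H3, marks active and poised promoters and enhancers, where the nucleosomes beside a bound or transcribed site carry the mark and the site itself can be free of nucleosomes. MM-401 thus targets 1 contact within the complex, whereas 4OHT removes the gene of 1 of the methyltransferases that WDR5 serves.

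The jointly absent sites were 1 of 4 classes of a common starting set, the 4497 autosomal DMSO WDR5 peaks of at most 500 bp that shared a base with an EtOH peak. Among the 13744 autosomal DMSO peaks in that width range, only 32.7% were called in EtOH, so the solvent controls of the separate cell populations shared a minority of narrow WDR5 peaks before any treatment was considered. Within the starting set 47.8% were absent under MM-401, 51.8% under 4OHT and 26.8% under both. Over all 13744 peaks the shares were 61.2%, 71.6% and 46.8%. The other classes held 944 peaks absent only under MM-401, 1126 absent only under 4OHT and 1222 called in all 4 lists, here called retained sites. Intervals of shares below are 95% Wilson intervals on counts of peaks. An interval of a change between lists is a 95% normal approximation that treats the lists as independent, although the sites are the same. All intervals carry no replicate error and treat neighbouring peaks as independent.

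Jointly absent sites had the width of the DMSO list at large and were narrower than retained sites. Their median width in DMSO was 175 bp, with quartiles of 125 and 250 bp, the same 3 values as over all 13744 autosomal DMSO peaks of up to 500 bp. Retained sites had a median of 300 bp with quartiles of 225 and 375 bp. Peaks absent only under MM-401 had a median of 200 bp and those absent only under 4OHT 250 bp. Of the starting peaks of 75 to 100 bp, 292 of 626 were jointly absent, or 46.6% (42.8 to 50.6%). This share was 36% (33.5 to 38.5%) among peaks above 100 and up to 200 bp, 21.4% (19.3 to 23.8%) among those up to 300 bp and 11.9% (10.2 to 13.8%) among those up to 500 bp. Retained peaks took the opposite course, from 10.2% (8.09 to 12.8%) of the narrowest class to 45.5% (42.7 to 48.3%) of the widest. A wider DMSO peak has more bases that a treated peak can share. How much of this trend follows from the overlap rule was not tested. Because width and class moved together, comparisons of the mark with retained sites are also given within width classes.

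**Figure D1:**
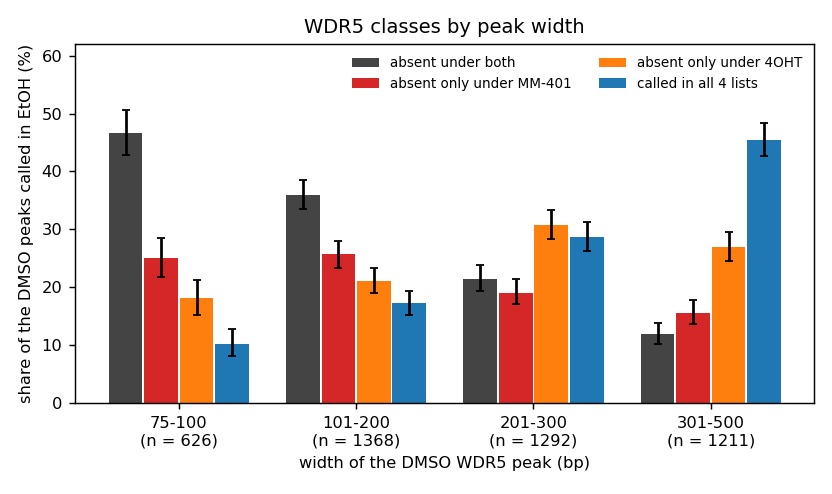
Share of the DMSO WDR5 peaks called in EtOH that fell into each of the 4 classes (y axis, percent) by width of the DMSO peak in bp (x axis). Bars are shares and whiskers 95% Wilson intervals. The jointly absent share fell from 46.6% at 75 to 100 bp to 11.9% in the widest class. Wider peaks also have more bases that a treated peak can share.

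The limits of the rule cut through neighbouring values. On the width limit, 4 sites were exactly 500 bp wide, while 8 peaks that were wider by a single grid step met every other condition and were left out, among 26 left out for width in all. Abutting peaks counted as absent, so 39 sites touched an MM-401 WDR5 peak and 70 touched a 4OHT WDR5 peak without sharing a base. Just outside the rule, 113 peaks were absent from one treated list and overlapped in the other by a single bin of 25 bp, the grid on which these lists were built. On the EtOH side, 134 sites were shared with EtOH by 1 such bin only.

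The EtOH partner of a site was seldom the same interval. It was wider than the DMSO peak at 648 sites, narrower at 459 and of equal width at 98, with a median of 200 bp and quartiles of 150 and 300 bp. The centres of the DMSO and EtOH peaks lay a median of 75 bp apart, and 466 sites (38.7%) had centres within 50 bp. EtOH covered 313 sites (26%) in full and 417 sites (34.6%) by less than 50% of their length. When at least 50% of the DMSO peak had to be covered in EtOH, 788 jointly absent sites remained.

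The sites were scattered over the genome. The 1090 sites with H3K4me2 in DMSO lay in 1056 H3K4me2 peaks, of which 1024 held 1 site and none held more than 3. A further jointly absent site lay within 2 kb of 110 sites (9.13%). The share of the starting set that was jointly absent ran from 23.4% (18.9 to 28.7%) on chromosome 5 to 34.4% (29.8 to 39.2%) on chromosome 2, where 133 of 387 starting peaks were jointly absent. Chromosome 2 was the 1 autosome whose interval did not include the 26.8% of the whole starting set.

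What remained of WDR5 around these sites differed between the treated lists. Gap here means the difference in coordinates between the facing edges of 2 peaks. Under MM-401 the nearest WDR5 peak was a median of 5126 bp away, with quartiles of 351 and 32251 bp. Under 4OHT the median gap was 751 bp, with quartiles of 151 and 8101 bp. The 4OHT list held 41054 peaks and the MM-401 list 17273. With both treated lists reduced to their widest 14481 peaks, the length of the DMSO list, the rule gave 1445 sites. Their median gaps were 8801 bp under MM-401 and 7701 bp under 4OHT. The cut also changed the set of sites, so the part of list length in the difference was not tested.

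At 465 sites, or 38.6% (35.9 to 41.4%), an MM-401 WDR5 peak lay within 1 kb. For 4OHT this held at 647 sites, or 53.7% (50.9 to 56.5%). Both lists had a WDR5 peak within 1 kb at 305 sites, or 25.3% (22.9 to 27.8%), and neither had one at 398 sites, or 33% (30.4 to 35.7%). At the far end, 161 sites, or 13.4% (11.6 to 15.4%), had no treated WDR5 peak within 10 kb in either list. Peaks absent under a single treatment were counted against the list that lacked them. Of those absent only under MM-401, 41.8% (38.7 to 45%) had an MM-401 peak within 1 kb, an interval that overlaps that of the jointly absent sites. Of those absent only under 4OHT, 37.7% (34.9 to 40.5%) had a 4OHT peak within 1 kb, below the 53.7% at jointly absent sites by more than the intervals.

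**Figure D2:**
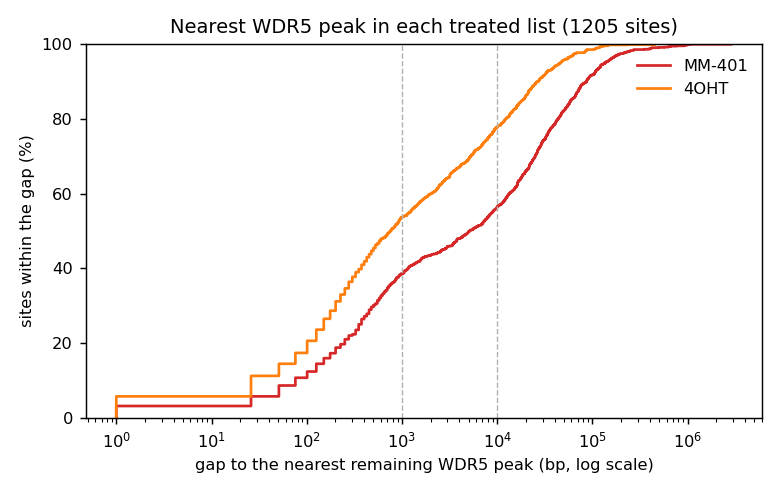
Cumulative share of the 1205 jointly absent sites (y axis, percent) by gap to the nearest WDR5 peak of the MM-401 list and of the 4OHT list (x axis, bp on a log scale). Dashed lines mark 1 kb and 10 kb. The 4OHT curve lies above the MM-401 curve at both lines, at 53.7% against 38.6% and at 77.7% against 56.3%.

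Remaining WDR5 peaks lay more often close beside the sites than 3 kb away, and so did peaks of the solvent lists. A 4OHT WDR5 peak covered the position 300 bp to the left of the centre at 14% of the sites and the position 3 kb to the left at 1.58%. Under MM-401 the shares were 5.81% and 0.747%. The DMSO list itself had other WDR5 peaks in the same flanks, with 6.06% of sites covered 500 bp to the left and 6.31% covered 500 bp to the right. A second DMSO WDR5 peak lay within 2 kb of 510 sites, or 42.3% (39.6 to 45.1%), against 31.2% (28.6 to 33.8%) of retained sites. Peaks absent only under MM-401 had a like share, 41.7% (38.6 to 44.9%), and those absent only under 4OHT had 26.4% (23.9 to 29%). Where there was such a neighbour in DMSO, an MM-401 peak lay within 2 kb at 60.8% (56.5 to 64.9%) of the sites, and where there was none at 30.8% (27.5 to 34.3%). The same split gave 73.1% (69.1 to 76.8%) and 50.2% (46.5 to 53.9%) for 4OHT. Counting the site itself, a site had on average 1.57 WDR5 peaks within 2 kb in DMSO and 1.75 in EtOH, and 0.589 under MM-401 and 0.959 under 4OHT. The rule puts a peak of both solvent lists on every site and a treated peak on none. These averages therefore cannot be read as a fall in the flanks.

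**Figure D3:**
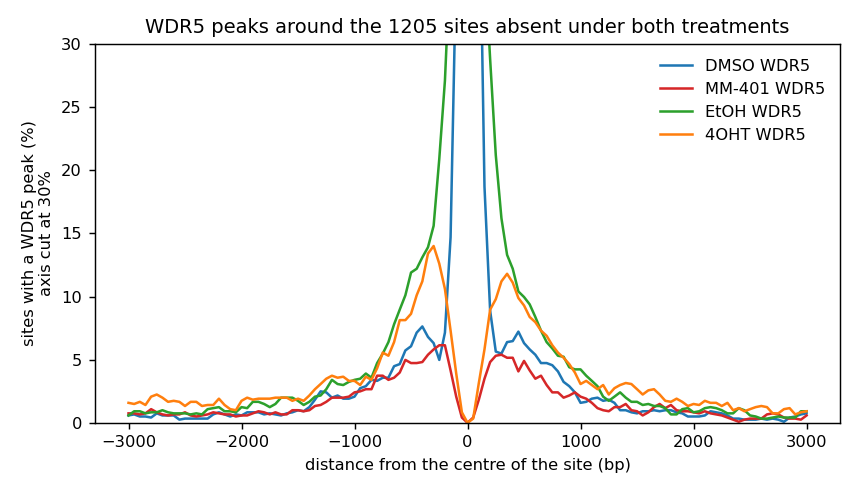
Share of the 1205 jointly absent sites at which a WDR5 peak of each of the 4 lists covered a position (y axis, percent, drawn up to 30%) by distance from the centre of the DMSO peak (x axis, bp). At the centre the rule fixes DMSO at 100% and both treated lists at 0. The treated lists rise beside the centre, 4OHT to 14% at 300 bp to the left, where EtOH stood at 15.6%.

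The remaining peaks were only partly peaks of the solvent lists. The same shares over all peaks of the treated lists were not counted, so whether they are particular to these sites cannot be told. Of the 524 MM-401 peaks found as nearest within 2 kb of a site, counted once for each site, 137 (26.1%) overlapped a DMSO WDR5 peak, 213 (40.6%) overlapped an EtOH one and 255 (48.7%) overlapped neither. Of the 722 such 4OHT peaks, 136 (18.8%) overlapped a DMSO peak, 325 (45%) an EtOH peak and 348 (48.2%) neither. At 103 sites the MM-401 peak, and at 183 sites the 4OHT peak, overlapped the very EtOH peak that lay over the site. A treated peak was thus called on part of the EtOH interval there but not on the DMSO interval. For MM-401 the EtOH interval is that of the other cell population. For 370 sites with a peak within 2 kb in both treated lists, the MM-401 and 4OHT peaks lay on the same side of the site in 252 cases, or 68.1% (63.2 to 72.7%), and overlapped each other in 107, or 28.9% (24.5 to 33.7%).

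Whether WDR5 stayed elsewhere in the same H3K4me2 peak was then counted. Of the 1090 DMSO H3K4me2 peaks over jointly absent sites, counted once for each site, 387 still held an MM-401 WDR5 peak, or 35.5% (32.7 to 38.4%). Of the 1177 EtOH H3K4me2 peaks over the sites, 711 held a 4OHT WDR5 peak, or 60.4% (57.6 to 63.2%). The EtOH H3K4me2 peaks were wider and the 4OHT WDR5 list longer, and how much each adds to this difference was not tested. The MM-401 share was not particular to the jointly absent sites, since peaks absent only under MM-401 gave 35.6% (32.3 to 39%). For 4OHT, peaks absent only under 4OHT gave 45.2% (42.2 to 48.2%), below the jointly absent sites. Their EtOH H3K4me2 peaks were also narrower, with a median of 2900 bp against 3525 bp. Fewer of these held at least 2 DMSO WDR5 peaks, 30.6% against 44.8%. What these differences add was not tested.

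H3K4me2, which the rule did not use, was still called at nearly all of the sites after both treatments. In DMSO it overlapped 1090 of 1205 sites, or 90.5% (88.7 to 92%), against 88.7% of all narrow autosomal DMSO WDR5 peaks and 88.0% of the starting set. Under MM-401 it overlapped 1152 sites, or 95.6% (94.3 to 96.6%), against 92.6% and 94.3%. In EtOH it overlapped 1177 sites, or 97.7% (96.7 to 98.4%), against 91.3% and 95.7%, and under 4OHT 1134 sites, or 94.1% (92.6 to 95.3%), against 88.8% and 92.1%. All 4 lists had H3K4me2 at 1069 sites, or 88.7% (86.8 to 90.4%), where the shares over all narrow peaks and over the starting set were 83.1% and 85.3%. The intervals of the sites lay above the share of the starting set in DMSO, EtOH, 4OHT and all 4 lists, and under MM-401 the interval reached down to it. Peaks absent only under MM-401 had the lowest share in DMSO, 81.6% (79 to 83.9%). Retained sites gave 88.7% in DMSO and 96.3% in EtOH, and 94.8% and 92.9% after MM-401 and 4OHT, each with an interval that overlaps that of the jointly absent sites when widths are pooled.

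Within width classes the narrow sites differed. In DMSO, 84.6% (80 to 88.3%) of jointly absent peaks of 75 to 100 bp had H3K4me2, against 67.2% (55 to 77.4%) of retained ones. Above 100 and up to 200 bp the DMSO shares were 91.1% (88.2 to 93.3%) and 81.8% (76.4 to 86.2%). In that class the MM-401 shares were 95.7% (93.6 to 97.2%) and 89.8% (85.3 to 93.1%). For 4OHT, peaks of 75 to 100 bp gave 92.8% (89.3 to 95.2%) and 76.6% (64.9 to 85.3%). In these 4 pairs the jointly absent sites were marked more often than retained sites of like width by more than the intervals. Above 200 bp the intervals overlapped in every list, as in DMSO at up to 300 bp, with 93.1% (89.5 to 95.6%) and 88.1% (84.5 to 91%). In DMSO, peaks absent only under 4OHT had 81.4% (73.3 to 87.5%) at 75 to 100 bp and 87.5% (83.2 to 90.9%) in the next class. Both intervals overlap those of the jointly absent sites. Peaks absent only under MM-401 lay lower, at 71.3% (63.8 to 77.8%) and 80.9% (76.5 to 84.7%).

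Seen site by site, H3K4me2 with no called peak left after treatment was rare, while a weaker signal could not be seen in these lists. The study, which counted partial loss as well, reported loss at most H3K4me2 peaks under MM-401. Its share was taken over all of its H3K4me2 peaks, and the shares here cover only those over selected WDR5 sites. The values are thus of unlike sets and measures. Of the 1090 sites with H3K4me2 in DMSO, 6 had none under MM-401, or 0.55% (0.253 to 1.2%), and 68 sites had it under MM-401 but not in DMSO. Of the 1177 with H3K4me2 in EtOH, 47 had none under 4OHT, or 3.99% (3.02 to 5.27%), and 4 had it under 4OHT only. Retained sites gave 1.11% (0.634 to 1.92%) and 4.08% (3.09 to 5.37%). The sites that kept WDR5 and those that did not therefore differed by less than the intervals in how often H3K4me2 was absent after treatment. Only 2 sites (0.166%) had H3K4me2 in both solvents and in neither treated list, against 0.267% of the starting set. In none of the 4 lists was it called at 17 sites (1.41%), against 2.71% of the starting set.

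The next most frequent patterns came from the DMSO list. At 47 sites (3.9%) H3K4me2 was called in every list but DMSO, against 5.05% of the starting set. It was called in MM-401 and EtOH only at 18 sites (1.49%), against 1.58%. In EtOH only it was called at 18 (1.49%), against 1.25%. In DMSO, MM-401 and 4OHT most sites that lacked the mark lay between marked stretches. Of the 115 sites without H3K4me2 in DMSO, 91 had an H3K4me2 peak within 1 kb on both sides and 12 had none on either side, and the median gap to the nearest H3K4me2 peak was 76 bp. Under MM-401 37 of 53 unmarked sites and under 4OHT 44 of 71 were flanked on both sides. In EtOH this held for 11 of 28, while 16 had no H3K4me2 peak within 1 kb on either side and the median gap was 2576 bp. Counting H3K4me2 within 1 kb as present brought the 4 lists to between 98.5 and 99%, and the rise from DMSO to MM-401 then became a fall by 0.166 percentage points, within an interval of -0.991 to 0.659.

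**Figure D4:**
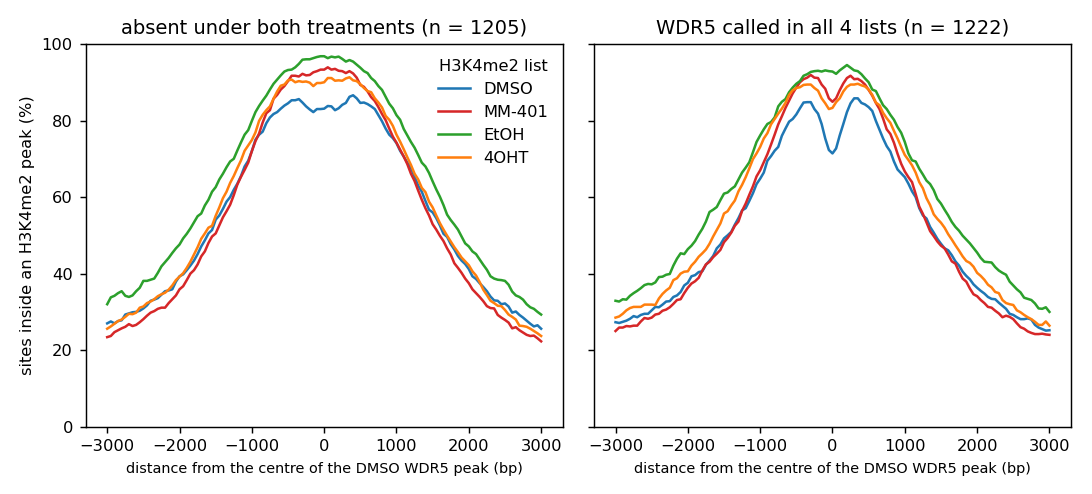
Share of sites inside an H3K4me2 peak (y axis, percent) by distance from the centre of the DMSO WDR5 peak (x axis, bp), for jointly absent sites on the left and for sites with WDR5 in all 4 lists on the right. Lines are the 4 H3K4me2 lists. In DMSO the centre was covered at 83.1% of jointly absent and 71.4% of retained sites.

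The shape of H3K4me2 across the site differed from that at retained sites. In DMSO the central base of the WDR5 peak was covered by H3K4me2 at 83.1% (80.8 to 85.1%) of jointly absent and 71.4% (68.8 to 73.8%) of retained sites, although positions 250 bp to the left and right were covered about equally, at 83.7 and 84.1% against 83 and 84.5%. The centre was covered under MM-401 at 93.3% (91.7 to 94.6%) against 84.9% (82.8 to 86.8%). The values were 90% (88.1 to 91.5%) against 83.3% (81.1 to 85.3%) under 4OHT, and 96.8% (95.7 to 97.7%) against 92.8% (91.2 to 94.1%) in EtOH. Central cover was thus lower at retained sites in every list, and in DMSO only they had a trough between the flanking positions of over 10 percentage points.

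To set the trough apart from plain lack of the mark, sites with H3K4me2 at 500 bp on both sides were counted. In DMSO 128 of 883 such jointly absent sites had no H3K4me2 at the centre, or 14.5% (12.3 to 17%), against 194 of 890 retained sites, or 21.8% (19.2 to 24.6%). Under MM-401 the shares were 4.72% (3.57 to 6.22%) and 9.55% (7.89 to 11.5%), and under 4OHT 5.9% (4.6 to 7.54%) and 9.51% (7.84 to 11.5%). In EtOH central gaps were few, at 0.921% (0.501 to 1.69%) and 2.1% (1.39 to 3.16%), with overlapping intervals. The classes absent under 1 treatment did not lie between these in DMSO. Those absent only under MM-401 had gaps in 26.3% (23.1 to 29.7%) and those absent only under 4OHT in 11% (8.96 to 13.5%), the latter overlapping the interval of the jointly absent sites.

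The order of central cover in DMSO was the same within each width class. For peaks of 75 to 100 bp, the centre lay in H3K4me2 at 80.5% (75.5 to 84.6%) of jointly absent and 67.2% (55 to 77.4%) of retained sites. In the next class, up to 200 bp, it did so at 85.8% (82.4 to 88.6%) against 72.5% (66.4 to 77.8%). The class up to 300 bp gave 81.6% (76.6 to 85.7%) against 71.4% (66.6 to 75.8%), and the widest 81.9% (74.9 to 87.4%) against 71.3% (67.4 to 74.9%). The intervals were apart in the middle classes, overlapped in the narrowest and touched in the widest. Gaps between marked flanks were less clearly separated by class, at 17.5% against 25.6%, 9.86% against 21.2%, 17.1% against 19.3% and 18.9% against 23.2% from narrowest to widest. Their intervals were apart only in the class up to 200 bp, at 7.17 to 13.4% against 15.7 to 28.1%.

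**Figure D5:**
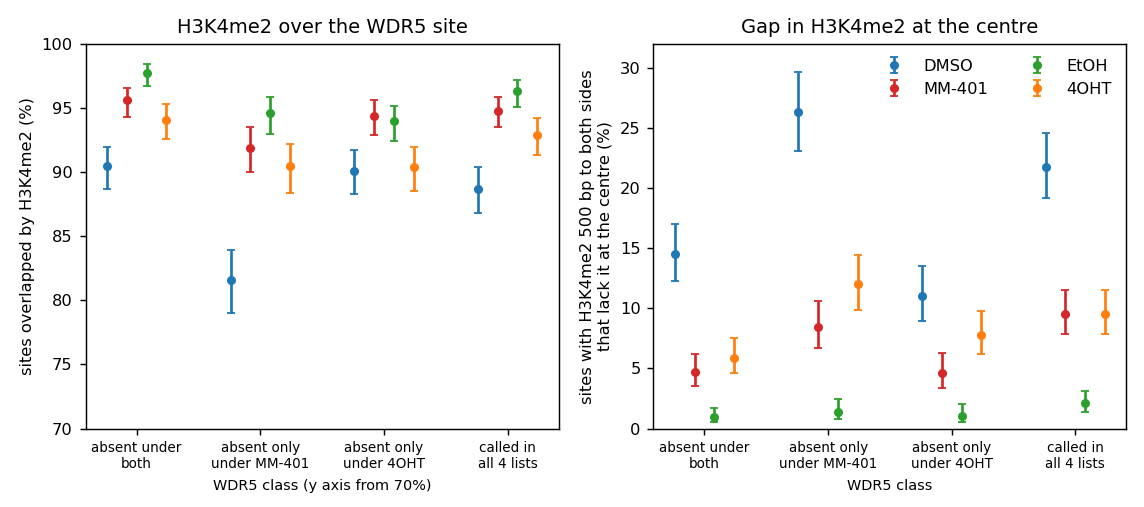
Left, share of sites overlapped by H3K4me2 in each of the 4 lists (y axis from 70 to 100%) for the 4 WDR5 classes (x axis). Right, share of sites with H3K4me2 at 500 bp on both sides that lacked it at the centre. Points are shares and whiskers 95% Wilson intervals. Central gaps in DMSO were at 14.5% of jointly absent and 21.8% of retained sites.

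H3K4me2 peaks over the sites changed width after treatment, in different directions in the 2 cell populations. Their median width was 2275 bp for DMSO and 3525 bp for EtOH, and 2650 bp and 2750 bp for MM-401 and 4OHT. Where both lists had a peak, it was wider under MM-401 than in DMSO at 611 of 1084 sites, or 56.4% (53.4 to 59.3%), narrower at 443 and equal at 30, with a median change of 75 bp. Under 4OHT it was narrower than in EtOH at 901 of 1130 sites, or 79.7% (77.3 to 82%), and wider at 213, and the median change was -375 bp. At 173 of these sites the 4OHT peak had at most 50% of the EtOH width, whereas 13 of the MM-401 peaks had at most 50% of the DMSO width.

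The MM-401 direction changed with how H3K4me2 peaks were divided. With peaks up to 500 bp apart joined in all lists, the median change under MM-401 was -125 bp and the median widths were 3550 bp in DMSO and 3525 bp under MM-401. Under 4OHT the joined peaks were still narrower. Retained sites showed the same directions with the peaks as deposited, wider under MM-401 at 61.1% (58.1 to 64%) and narrower under 4OHT at 74.8% (72.2 to 77.3%), and the interval of the latter touched that of the jointly absent sites at 77.3%.

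Within the window of 1 kb to each side of the centre, H3K4me2 covered on average 82.2% of the bases for DMSO and 87.6% for MM-401, and 91.9% for EtOH and 87.1% for 4OHT. The window was covered in full at 295 DMSO, 442 MM-401, 732 EtOH and 465 4OHT sites. Retained sites had means of 77.4%, 83.8%, 87.7% and 84.2% in the same order of lists.

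Distance from remaining WDR5 was next set against the mark. The 161 sites without a treated WDR5 peak within 10 kb in either list had H3K4me2 in 88.8% (83 to 92.8%) of cases for DMSO and 95% (90.5 to 97.5%) for MM-401. For EtOH it was 93.2% (88.2 to 96.1%) and for 4OHT 90.7% (85.2 to 94.3%). All 4 lists marked 138 of these 161. The 305 sites with treated WDR5 within 1 kb in both lists had 90.5% (86.7 to 93.3%), 97% (94.5 to 98.4%), 99.3% (97.6 to 99.8%) and 95.1% (92 to 97%). The intervals overlapped in DMSO, MM-401 and 4OHT and were apart in EtOH. H3K4me2 was thus called at most sites that stood far from any WDR5 peak of either treated list.

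The H3K4me2 peaks of the far sites were narrower, before treatment as well. Medians were 1875 bp for DMSO, 2050 bp for MM-401, 2450 bp for EtOH and 2050 bp for 4OHT, against 2700, 3100, 4275 and 3362 bp at the sites with WDR5 close by. Under MM-401 the peak was wider at 58% of the far sites (49.8 to 65.8%) and at 58% (52.1 to 63.6%) of the close ones. Under 4OHT it was narrower at 71.5% (63.7 to 78.3%) of far and 78.6% (73.5 to 82.9%) of close sites, with overlapping intervals. The WDR5 peaks themselves had the same median width of 175 bp in both groups.

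MLL1 peaks seldom lay on the sites. The DMSO MLL1 list overlapped 39 of the 1205 sites, or 3.24% (2.38 to 4.39%), against 3.10% of all narrow autosomal DMSO WDR5 peaks and 3.38% of the starting set. Within 2 kb there was a DMSO MLL1 peak at 204 sites, or 16.9% (14.9 to 19.2%), against 16.5% and 17.4%. The MM-401 MLL1 list overlapped 77 sites, or 6.39% (5.14 to 7.91%), against 5.62% and 6.27%, and had a peak within 2 kb of 532 sites, or 44.1% (41.4 to 47%), against 35.9% and 39.4%. The DMSO MLL1 list was made by another peak caller than the MM-401 list, so the shares of the 2 lists cannot be set against each other. Retained sites had MLL1 at 3.76% (2.83 to 4.98%) in DMSO and at 8.43% (7 to 10.1%) under MM-401, and the intervals overlapped those of the jointly absent sites.

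The MLL1 shares of the sites lay at the level of the background, except for MM-401 MLL1 within 2 kb, whose interval lay above the 39.4% of the starting set. At 32% (29.3 to 34.8%), peaks absent only under 4OHT had the lowest share for that measure, and those absent only under MM-401 had 43% (39.9 to 46.2%). Sites with remaining WDR5 within 1 kb in both lists had an MM-401 MLL1 peak within 2 kb in 57% (51.4 to 62.5%) of cases and sites beyond 10 kb in 29.8% (23.3 to 37.3%). The order was the same for DMSO MLL1, before treatment, at 21.3% (17.1 to 26.2%) and 11.8% (7.69 to 17.7%), with overlapping intervals. The 39 sites with DMSO MLL1 carried H3K4me2 in every MM-401, EtOH and 4OHT list and at 38 sites in DMSO. In all, 110 sites had MLL1 in at least 1 list and 6 in both. These counts were not made over the starting set and join lists of different callers. No change of MLL1 can be read from them.

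Single sites, given in mm9 coordinates, show these patterns. Of the 4 sites of 500 bp, the one on chromosome 9 from 55955901 to 55956400 lay in H3K4me2 peaks whose widths were 7600 bp (DMSO), 7300 bp (MM-401), 21900 bp (EtOH) and 11050 bp (4OHT). MLL1 was called over it in DMSO and under MM-401, and the nearest WDR5 peaks were 601 bp away under MM-401 and 3176 bp away under 4OHT. It thus combined a broad mark, MLL1 and nearby remaining WDR5.

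The site on chromosome 12 from 110030376 to 110030875 abutted H3K4me2 in DMSO without overlap and lay in peaks of 3150 bp for MM-401, 3325 bp for EtOH and 3425 bp for 4OHT. Its nearest WDR5 peak was 26226 bp away under MM-401 and 1551 bp away under 4OHT. It is an example of a site that lacks the mark in DMSO alone.

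On chromosome 2 the site from 75497251 to 75497750 had no H3K4me2 in any list. The nearest H3K4me2 peak was 376 bp away in DMSO, 251 bp away under both treatments and closer in EtOH. A WDR5 peak lay 876 bp away under 4OHT and 25901 bp away under MM-401. The second widest of the 17 sites without the mark, on chromosome 16 from 77084376 to 77084650, had its nearest H3K4me2 peak within 250 bp under MM-401 and far off in the other lists, at 41601 bp (DMSO), 41726 bp (EtOH) and 41526 bp (4OHT).

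Among sites with MLL1 in DMSO, the one on chromosome 13 from 54605176 to 54605675 had H3K4me2 widths of 2975 bp (DMSO), 2875 bp (MM-401), 3100 bp (EtOH) and 2650 bp (4OHT). Its nearest WDR5 peaks were 35001 bp away under MM-401 and 9576 bp away under 4OHT. A further one, on chromosome 7 from 36539401 to 36539850, had WDR5 gaps of 106726 bp under MM-401 and 19451 bp under 4OHT and H3K4me2 peaks of 1875, 2200, 2275 and 2125 bp in DMSO, MM-401, EtOH and 4OHT. At both of them H3K4me2 kept a similar width in all lists.

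The 3 sites farthest from treated WDR5 had gaps of at least 227476 bp in both lists. The first, on chromosome 16 from 28894926 to 28895075, had gaps of 973326 bp under MM-401 and 452876 bp under 4OHT and carried H3K4me2 of 700 bp in DMSO and 775 bp under MM-401, with no H3K4me2 in either list of the floxed cells. The second, on chromosome 4 from 24661101 to 24661175, had gaps of 2897576 bp under MM-401 and 237676 bp under 4OHT. It lay 26 bp outside H3K4me2 in DMSO and inside peaks of 1350 bp for MM-401, 625 bp for EtOH and 1000 bp for 4OHT. The third, on chromosome 4 from 52451526 to 52451650, had gaps of 227476 bp and 451326 bp and H3K4me2 peaks of 1100, 1075, 725 and 675 bp in DMSO, MM-401, EtOH and 4OHT.

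Finally, the 2 sites with H3K4me2 in both solvents and in neither treated list were seen in detail. On chromosome 4 from 6310551 to 6310725, H3K4me2 peaks of 1500 bp in DMSO and 1800 bp in EtOH lay over the site, and an H3K4me2 peak abutted it under both treatments. An MM-401 WDR5 peak abutted it as well, and the nearest 4OHT WDR5 peak was 17801 bp away. On chromosome 2 from 151472501 to 151472600, the solvent peaks were 925 bp in DMSO and 500 bp in EtOH, and the nearest treated H3K4me2 peaks were 51 bp away under MM-401 and 276 bp away under 4OHT. Both sites thus lay close to H3K4me2 that remained.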

How the data were processed

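The authors deposited 1 list of peak positions for each of the 10 ChIP libraries. Per the labels, reads were aligned with Bowtie to mm9, and positions here are in mm9. Row names point to HPeak for 9 lists, whose starts all lay on a grid of 25 bp and were read as 1-based. Only 4% of the DMSO MLL1 starts lay on that grid, the study names MACS for it, and it was read as 0-based. No source used here names versions or HPeak thresholds. The deposited files hold no score or read count, so depth is unknown. The 4 inputs were not analysed here.

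Overlaps of at least 1 bp, gaps and Wilson intervals were computed with Python 3.11.15 and numpy 2.4.6. The code was tested on simulated lists and gave the same number of sites as bedtools 2.31.1. Figures used matplotlib 3.10.9. Sites were named by position by a rule: the widest, the widest with DMSO MLL1, the farthest from treated WDR5, those with H3K4me2 in solvents only and those without H3K4me2. The sites and measures were chosen with earlier results of these data known, and the central gap of H3K4me2 was examined after its profile had been seen. Gene positions and sequences in mm9 were not used here, so sites are given without genes.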

Additional observations from a re-analysis of the deposited data

Results flagged for a closer look

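At the jointly absent sites 3 measures of H3K4me2 moved in opposite directions in the 2 cell populations. The difference between the populations was not tested, since there was 1 library per condition. The share of sites with H3K4me2 changed by 5.15 percentage points from DMSO to MM-401 and by -3.57 points from EtOH to 4OHT. In the other 3 WDR5 classes the changes were between 4.26 and 10.4 points under MM-401 and between -4.13 and -3.44 points under 4OHT, so the opposite signs were seen there too. The mean share of the window of 1 kb to each side covered by H3K4me2 changed by 5.37 points under MM-401 and by -4.77 points under 4OHT. The median change in the width of the H3K4me2 peak was 75 bp under MM-401 and -375 bp under 4OHT. The opposite signs did not hold under every alternative. With H3K4me2 within 1 kb counted as present, the share changed by -0.166 points in both contrasts, and with peaks up to 500 bp apart joined the median width changed by -125 bp under MM-401 and by -425 bp under 4OHT. The H3K4me2 lists held 105136 peaks in DMSO and 92025 under MM-401, and 100898 in EtOH and 91305 under 4OHT. The part of list length in these changes was not tested for the window cover and the width, and with all lists cut to 91305 peaks the changes in share were 5.39 points (MM-401) and -3.49 points (4OHT).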

How the results depend on the processing

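Of 92 values with an interval recomputed under alternatives, 50 stayed within the interval of the reported value, 40 left it and 2 changed sign. Here intervals of medians came from the ordered values, and those of means and of changes in share from a normal approximation. Of 5 recomputed counts of sites, 2 were within 1.5 times the reported count and 3 were not. With no treated WDR5 peak allowed within 1 kb, 398 sites remained, with H3K4me2 at 95% in EtOH and 91.7% under 4OHT and median WDR5 gaps of 21738 bp (MM-401) and 9326 bp (4OHT). Within 2 kb these were 329 sites, 94.5%, 91.5%, 25951 bp and 12451 bp. Requiring 50% cover in EtOH left 788 sites. Sites wider than 100 bp had H3K4me2 at 92.3% in DMSO and 96.8% under MM-401. Treated WDR5 lists cut to the length of the DMSO list gave gaps of 8801 and 7701 bp.

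With 50% of the site to be covered, H3K4me2 was at 84.5% in DMSO, 94.3% under MM-401 and 91.1% under 4OHT, with changes of 9.79 points (MM-401) and -5.98 points (4OHT). With H3K4me2 within 1 kb counted, it was at 99, 98.8, 98.7 and 98.5% in DMSO, MM-401, EtOH and 4OHT, and both changes were -0.166 points, a reversed sign for MM-401. With H3K4me2 peaks up to 500 bp apart joined, the shares were 94.2, 97.9, 98.4 and 96%, an alternative chosen after seeing the data, and median widths were 3550, 3525, 4512 and 3800 bp. The median change under MM-401 was then -125 bp, reversed from 75 bp. Which list's joined peaks changed the sign was not tested. Windows of 500 bp gave mean cover of 84.2, 92.4, 95.7 and 90.3%, and of 2 kb 68.7, 70.4, 77.6 and 72%. MLL1 within 2 kb was at 16.9% in DMSO and 44.1% under MM-401. H3K4me2 lists cut to 91305 peaks and DMSO MLL1 starts read as 1-based moved no value beyond its interval.

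No paired analysis was possible because each condition had 1 library per antibody and no test was made. Gene position and base composition, with their alternatives, were not run. Depth was unknown, so a peak not called cannot be told apart from one below the caller's threshold, and MM-401 against DMSO cannot be set against 4OHT against EtOH apart from the cell population.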
